A study of Mus musculus with 13 samples.

Results

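The genes described here are 36 mouse genes of glucose breakdown and of the response to low oxygen, chosen by name and taken from a table of 46679 gene IDs, in which all 36 were found. They cover glucose entry (Slc2a1, Slc2a3, Hk1, Hk2), middle glycolysis (Gpi1, Pfkl, Pfkm, Pfkp, Pfkfb3, Aldoa, Aldoc, Tpi1), lower glycolysis (Gapdh, Pgk1, Pgam1, Eno1, Pkm), the fate of lactate and pyruvate (Ldha, Slc16a1, Slc16a3, Pdk1), the alpha subunits of the hypoxia-inducible factors (Hif1a, Epas1), oxygen sensing (Egln1, Egln3, Vhl) and 10 targets of these factors outside glycolysis (Bnip3, Car9, Ndrg1, Adm, Ankrd37, P4ha1, P4ha2, Ddit4, Kdm3a, Mxi1). The data are 13 RNA libraries made from female FVB mice that were 10 weeks of age at collection. The first group was 3 mammary tumors, which had grown for 2 weeks in the inguinal fat pad after 250000 Met1 cells were injected there at 8 weeks of age. The second was the lungs of 4 mice that carried such a tumor, 3 of them the donors of the tumors, and the third was the lungs of 4 mice without a tumor. For the last group the sources used here do not say whether a control injection was given. Met1 is a single mouse mammary carcinoma line derived from an FVB mouse with a polyoma middle T transgene, so all tumors come from 1 line, and each tumor also holds cells of its host. Whole tissue was used, and the labels do not say whether the lungs held metastases.

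Glycolysis splits glucose into pyruvate, and lactate dehydrogenase turns pyruvate into lactate, which monocarboxylate transporters carry across the cell membrane. When oxygen is plentiful, prolyl hydroxylases of the Egln family mark the alpha subunits of the hypoxia-inducible factors, and the Vhl protein sends them for destruction. When oxygen is scarce the alpha subunits persist and raise the transcription of glucose transporters, most glycolytic enzymes and a set of other targets. In the lung, Epas1 (HIF-2 alpha) is known as an endothelial gene.

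The libraries held 8321037 to 13982903 estimated counts. Tumors and 1 tumor-bearing lung were prepared in batch 2 and 3 tumor-bearing lungs in batch 1; normal mice 6886 and 6888 had a library in both batches, and 6887 and 6893 in batch 2 alone. In a marker check, 6 lung epithelium genes summed to between 3.43 and 24.6 CPM, counts scaled to a common library size, in tumors, against 9300.1 to 19239 CPM in tumor-bearing lungs, and 6 cell division genes summed to between 559 and 596 CPM in tumors and to between 17.4 and 40.4 CPM in lungs. For 9 markers of simple epithelium the sum was 1056 to 1309 CPM in tumors and 446 to 718 CPM in lungs. Adipocyte markers summed to 98.0 to 268 CPM in tumors and 4.55 to 23.4 CPM in lungs. Macrophage markers summed to 287 to 375 CPM and 126 to 213 CPM in these tissues, and red cell markers to 212 to 746 CPM in tumors and at least 4023 CPM in lungs. Heart muscle markers stood at 879 CPM in tumor-bearing lung 6879 and at 576 CPM in the batch 2 library of normal lung 6886, and at 38.9 CPM or less in the others. Values below are CPM scaled over the 13 libraries, listed for tumors of mice 6877, 6880 and 6881, for normal lungs of mice 6886, 6887, 6888 and 6893 in batch 2, and for tumor-bearing lungs of mice 6877, 6879, 6880 and 6881. Counts from bulk tissue cannot tell fewer cells of a type from less RNA per cell.

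Tumors were first compared with normal lung within batch 2, 3 libraries against 4, to ask which steps of the pathway differ between the tumor and a tumor-free organ. Of the 36 genes, 25 were higher in tumors, 5 were lower and 6 did not pass an adjusted p of 0.05. The rise took in 15 of the 17 genes from glucose entry through lower glycolysis, led by Aldoc, Slc2a1, Eno1 and Pgk1, and it was largest for the prolyl hydroxylase Egln3. The 5 that fell were Epas1, Slc2a3, P4ha2, Pfkfb3 and Mxi1. Over all 18038 genes tested, 56.8% were called, 29.4% higher and 27.4% lower, so a call is common in this comparison, and the share of 83.3% called among the 36 is read against that level. The median log2 fold change was 1.43 over the 36 genes and −0.02 over all genes tested. In 24 of the 36 every tumor lay above every normal lung, and in 5 every tumor lay below. Over all genes these shares were 29.6% and 30.2%. The members were chosen with earlier results of these data known, so the shares and medians above are no test of the set. The markers of lung epithelium, simple epithelium, cell division, adipocytes, macrophages and red cells given above differ between the same 2 tissues. Fibroblast markers differ too, at 989 to 1979 CPM in tumors and 676 to 857 CPM in the batch 2 normal lungs. The part of all these markers in these counts was not tested, and tumor and tissue of origin cannot be told apart in this design.

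**Figure D1:**
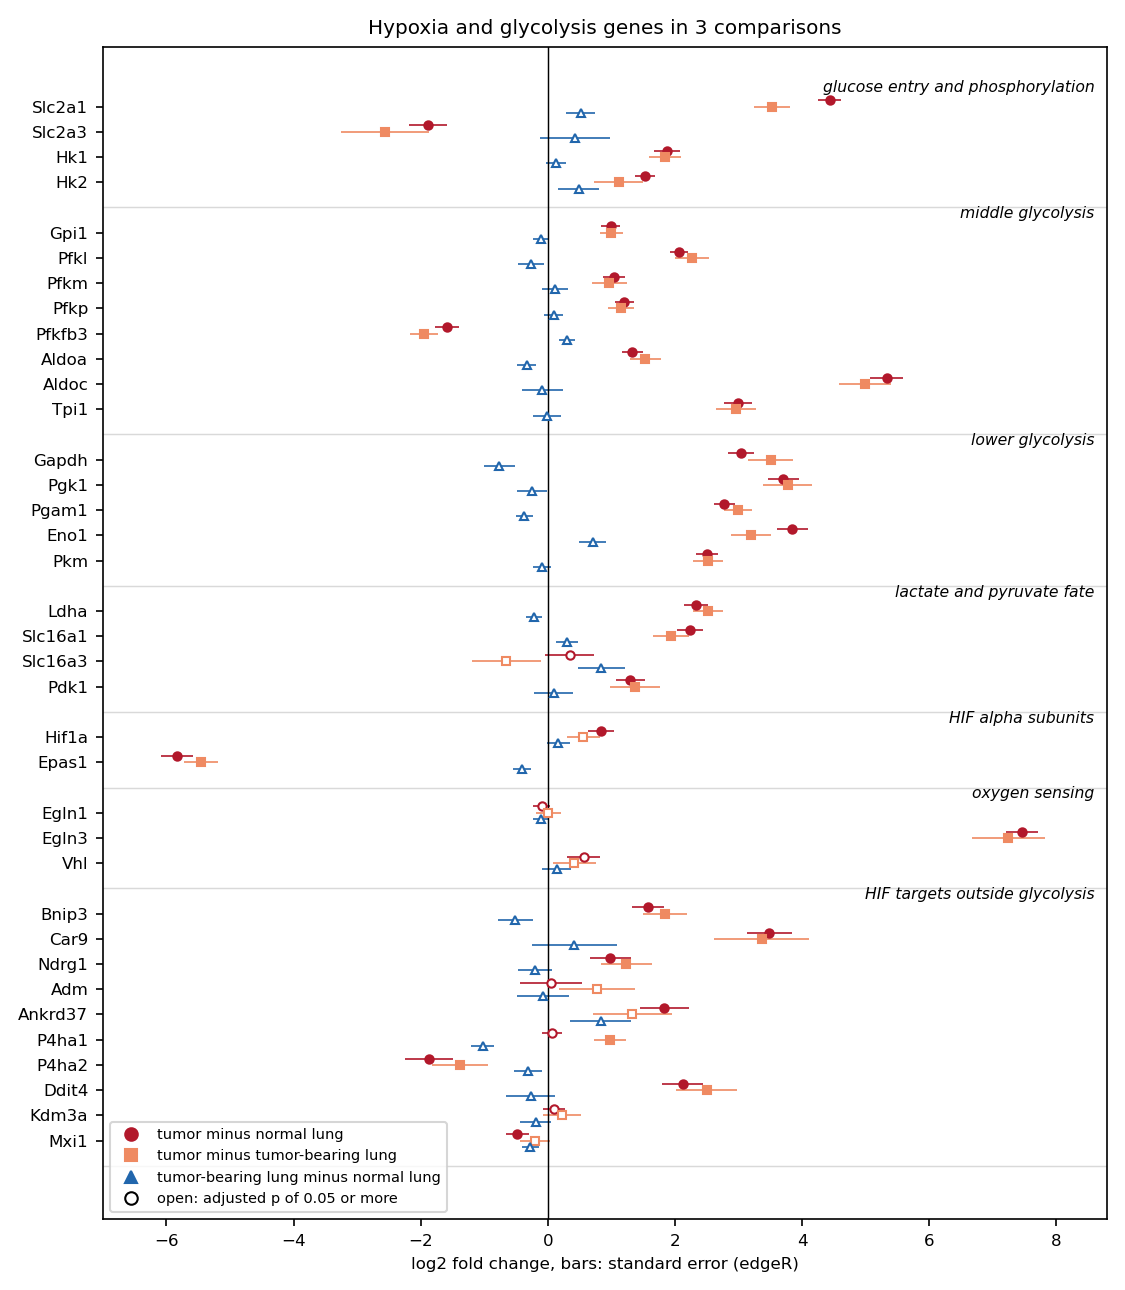
Log2 fold changes (x axis, with edgeR standard errors) of the 36 genes by pathway role in the 3 comparisons; filled symbols passed an adjusted p of 0.05 and open symbols did not. All 5 genes of lower glycolysis sit right of 0 in both tumor comparisons, Egln3 is farthest right at 7.46, and every symbol of the lung comparison is open.

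Since the hypoxia-inducible factors bind DNA at a short core motif, the promoter windows of the genes were searched for ACGTG and GCGTG on both strands; the palindrome CACGTG holds ACGTG on each strand. RefSeq windows (GRCm38.p6, 250 bases before to 50 after a gene's start) were found for 33 of the 36 genes. The motif was present in 30 of these 33, and in 46.73% of 27025 genes with such a window. A gene with several windows counted if any of them held it. Both motifs hold the letters CG, and the members were not matched to all genes for CG content or number of windows. It was found in 22 of 24 genes that rose in tumors, in 3 of 3 that fell and in 5 of 6 not called. CACGTG was found in 6 of the 33, against 8.09% of all genes. Below are the windows of the 4 genes with the largest rises among those with a motif and of P4ha2, which fell and holds 4 matches, 5′ to 3′ on the strand of the gene, with each match in capitals. Aldoc and Eno1 have 2 and 3 windows, of which 1 is shown.
Egln3, chr12:54203825-54204124, minus strand: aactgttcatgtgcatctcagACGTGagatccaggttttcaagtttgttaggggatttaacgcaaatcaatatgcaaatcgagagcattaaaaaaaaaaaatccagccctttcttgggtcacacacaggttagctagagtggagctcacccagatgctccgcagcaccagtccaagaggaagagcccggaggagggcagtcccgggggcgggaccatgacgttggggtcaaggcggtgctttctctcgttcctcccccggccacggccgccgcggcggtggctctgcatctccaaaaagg
Aldoc, chr11:78322823-78323122, plus strand: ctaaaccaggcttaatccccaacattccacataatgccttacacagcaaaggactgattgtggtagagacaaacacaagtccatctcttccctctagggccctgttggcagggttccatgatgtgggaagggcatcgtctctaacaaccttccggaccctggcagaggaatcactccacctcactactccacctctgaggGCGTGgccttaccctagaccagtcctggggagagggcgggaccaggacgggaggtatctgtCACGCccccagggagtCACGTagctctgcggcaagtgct
Slc2a1, chr4:119108495-119108794, plus strand: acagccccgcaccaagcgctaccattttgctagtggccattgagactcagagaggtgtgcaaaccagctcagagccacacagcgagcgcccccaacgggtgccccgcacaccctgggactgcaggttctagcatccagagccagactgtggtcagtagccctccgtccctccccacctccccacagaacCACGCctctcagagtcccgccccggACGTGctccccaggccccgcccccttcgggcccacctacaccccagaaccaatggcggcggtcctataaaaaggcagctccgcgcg
Eno1, chr4:150236458-150236757, plus strand: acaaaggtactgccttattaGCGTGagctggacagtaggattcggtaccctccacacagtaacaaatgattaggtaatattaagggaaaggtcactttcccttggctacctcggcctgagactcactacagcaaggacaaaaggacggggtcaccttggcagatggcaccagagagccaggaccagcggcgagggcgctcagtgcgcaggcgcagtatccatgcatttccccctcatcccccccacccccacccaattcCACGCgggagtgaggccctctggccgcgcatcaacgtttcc
P4ha2, chr11:54100674-54100973, plus strand: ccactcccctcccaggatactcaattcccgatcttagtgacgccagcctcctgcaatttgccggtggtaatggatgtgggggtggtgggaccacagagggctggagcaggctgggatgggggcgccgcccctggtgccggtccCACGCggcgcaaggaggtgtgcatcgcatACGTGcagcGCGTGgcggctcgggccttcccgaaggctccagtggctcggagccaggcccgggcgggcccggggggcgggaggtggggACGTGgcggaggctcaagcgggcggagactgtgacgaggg
Egln3 holds 1 match, Slc2a1 and Eno1 hold 2 each and Aldoc holds 3. A match is a stretch of letters and not a measured binding site.

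Glucose entry separated into 3 genes that rose and 1 that fell. Slc2a1, the broadly expressed glucose transporter GLUT1, stood at 196, 160.1 and 161 CPM in the tumors, at 8.62, 9.17, 6.30 and 7.99 CPM in the normal lungs and at 20.0, 8.74, 10.6 and 9.61 CPM in the tumor-bearing lungs. All tumors lay far above all lungs, and among lungs the tumor-bearing lung of mouse 6877 was highest. Its log2 fold change was 4.44 (SE 0.18, edgeR adjusted p = 2.90e-07) against normal lung. Slc2a3, the transporter GLUT3 of neurons and white blood cells, had 2.26, 1.52 and 2.49 CPM in tumors, 7.53, 10.3, 6.38 and 7.00 CPM in normal lungs and 13.6, 18.6, 7.16 and 2.70 CPM in tumor-bearing lungs. Here each tumor was below each lung, with the nearest lung, tumor-bearing lung 6881, close to tumor 6881, and the log2 fold change against normal lung was −1.89 (SE 0.30, edgeR adjusted p = 5.60e-04).

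Both hexokinases, which trap glucose in the cell by phosphorylating it, rose. Hk1 measured 121, 146 and 93.4 CPM in tumors, 39.8, 36.4, 31.0 and 25.2 in normal lungs and 32.9, 55.5, 51.6 and 64.5 in tumor-bearing lungs, a log2 fold change of 1.87 (SE 0.21, edgeR adjusted p = 6.03e-05) against normal lung. Hk2, the isoform known for its induction in tumors, measured 32.9, 27.8 and 33.0 CPM in tumors, 12.6, 9.41, 10.5 and 11.3 CPM in normal lungs and 14.1, 27.6, 12.2 and 10.4 CPM in tumor-bearing lungs, with a log2 fold change of 1.53 (SE 0.16, edgeR adjusted p = 4.15e-05). No lung overlapped the tumors for either gene, although tumor-bearing lung 6879, the library with 879 CPM of heart muscle markers, came within 1 CPM of the lowest tumor for Hk2; the part of those markers was not tested, and without that lung the log2 fold change of Hk2 between tumors and tumor-bearing lungs was 1.35 (edgeR adjusted p = 8.28e-04).

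In middle glycolysis 7 of 8 genes rose and Pfkfb3 fell. Aldoc, the brain-type aldolase, was measured at 183, 142 and 95.7 CPM in tumors, at 3.73, 3.16, 2.89 and 4.22 CPM in normal lungs and at 6.21, 1.34, 1.89 and 1.58 CPM in tumor-bearing lungs. Its lowest tumor was over all lungs by a wide margin, and the log2 fold change against normal lung was 5.33 (SE 0.26, edgeR adjusted p = 6.44e-07). Tpi1, the triose phosphate isomerase, reached 389, 282 and 272 CPM in tumors against 54.4, 35.1, 34.1 and 35.6 CPM in normal lungs and 50.6, 49.0, 32.9 and 39.0 CPM in tumor-bearing lungs. That is a log2 fold change of 3.0 (SE 0.22, edgeR adjusted p = 5.62e-06). The highest of the normal lungs was 6886, whose batch 2 library held 576 CPM of heart muscle markers, and without it the log2 fold change was 3.17. The batch 1 library of that mouse held 32.3 CPM of these markers and 66.7 CPM of Tpi1. The part of the markers was not tested.

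Pfkl, the liver-type subunit of phosphofructokinase, gave 124, 136 and 137 CPM in tumors, 38.1, 27.9, 32.5 and 29.2 in normal lungs and 35.2, 31.3, 27.1 and 19.7 in tumor-bearing lungs, a log2 fold change of 2.06 (SE 0.15, edgeR adjusted p = 4.25e-06). The muscle and platelet subunits rose by 1.04 for Pfkm and 1.21 for Pfkp on the log2 scale, Aldoa by 1.33 and the isomerase Gpi1 by 0.99. Pfkfb3 makes fructose 2,6-bisphosphate, the activator of phosphofructokinase, and went the other way, with 20.7, 22.2 and 33.7 CPM in tumors, 75.6, 72.7, 77.0 and 84.3 CPM in normal lungs and 103, 92.0, 103 and 94.8 CPM in tumor-bearing lungs. Every tumor was below every lung, and the log2 fold change was −1.59 (SE 0.19, edgeR adjusted p = 1.02e-04).

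**Figure D2:**
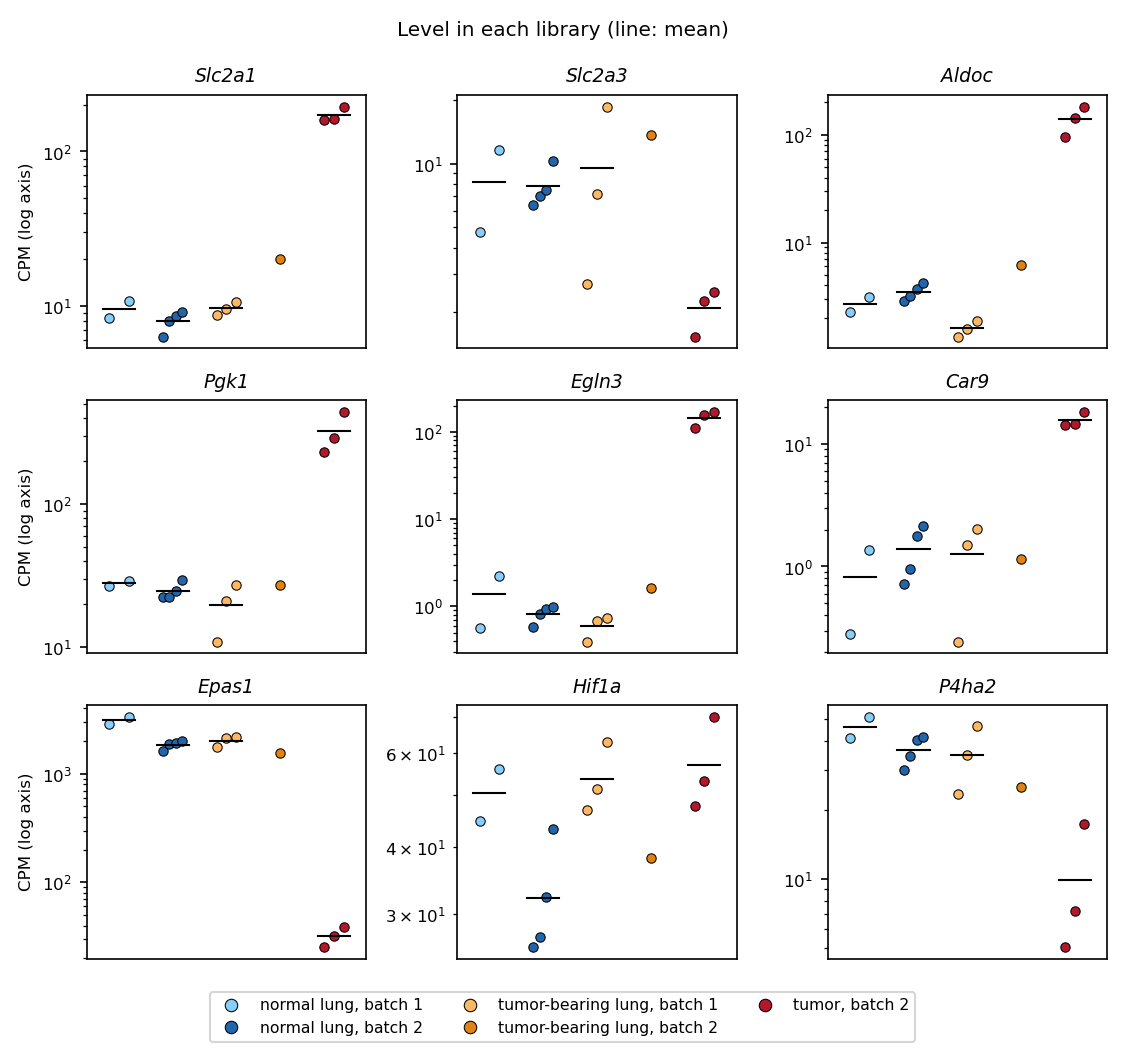
CPM (y axes, log scale) of 9 genes in each of the 13 libraries, by tissue and preparation batch; points are libraries and lines are means where there are at least 2. Tumors lie above all lungs for Slc2a1, Aldoc, Pgk1, Egln3 and Car9, below all lungs for Slc2a3, Epas1 and P4ha2, and overlap with lungs for Hif1a.

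All 5 genes of lower glycolysis rose, with a median log2 fold change of 3.04. Eno1, the enolase of most tissues, was at 255, 349.5 and 219 CPM in tumors, 22.9, 17.0, 13.6 and 23.4 CPM in normal lungs and 23.9, 35.4, 32.1 and 27.2 CPM in tumor-bearing lungs. Pgk1, the phosphoglycerate kinase of the first ATP-yielding step, was at 442, 291 and 231 CPM in tumors, 24.8, 22.5, 22.6 and 29.7 CPM in normal lungs and 27.2, 10.9, 20.9 and 27.1 CPM in tumor-bearing lungs. Neither gene had a lung near the lowest tumor, and the log2 fold changes against normal lung were 3.85 (SE 0.24, edgeR adjusted p = 2.31e-06) for Eno1 and 3.71 (SE 0.24, edgeR adjusted p = 2.70e-06) for Pgk1. Gapdh, the dehydrogenase between the aldolase and kinase steps and a common reference gene, stood at 475, 302 and 365 CPM in tumors, 58.2, 41.6, 40.8 and 46.8 CPM in normal lungs and 48.9, 21.0, 28.6 and 22.6 CPM in tumor-bearing lungs. For the phosphoglycerate mutase Pgam1 the values were 277, 235 and 190.2 CPM in tumors, 34.8, 34.2, 30.9 and 38.0 CPM in normal lungs and 32.3, 27.9, 29.8 and 26.0 CPM in tumor-bearing lungs. Tumors were again apart from all lungs, with log2 fold changes of 3.04 (SE 0.21, edgeR adjusted p = 3.51e-06) for Gapdh and 2.78 (SE 0.17, edgeR adjusted p = 1.85e-06) for Pgam1, and of 2.51 for the pyruvate kinase Pkm.

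Counts of these genes can be split with near-identical copies, most of them annotated as pseudogenes. At 90% identity or more over at least 50% of the copy, Gapdh had 173 such copies, and they took between 64.3 and 82.9% of the counts of gene and copies together, depending on the library. For Eno1 the share was 48.0 to 74.6%, with Eno1b as the largest copy, for Pgk1 18.2 to 71.2% and for Pgam1 9.98 to 24.9%. With the copies added, an alternative chosen after the data were seen, the log2 fold changes against normal lung were 2.79 for Gapdh, 3.78 for Eno1, 3.83 for Pgk1 and 2.69 for Pgam1, and all 4 remained past the threshold. Levels of single genes in this group are uncertain in CPM and in TPM, as the counting could split reads between gene and copy. In the batch 2 normal lungs the copies held 69.8 to 75.2% of the Gapdh counts. With them the mean of Gapdh there went from 46.8 to 170.8 CPM. The TPM that follow leave the copies out, so the order of genes by TPM is uncertain too. Per transcript length, Gapdh was the most abundant of the 36 in tumors, at 77.1 TPM (range 50.8 to 107), ahead of Eno1 at 55.0 TPM (range 45.6 to 60.4); in the batch 2 normal lungs Epas1 had 28.8 TPM (range 22.9 to 32.5) and Gapdh 10.2 TPM (range 8.17 to 13.9).

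Of the genes that decide the fate of pyruvate and lactate, 3 of 4 rose. Ldha, the subunit of lactate dehydrogenase that favors lactate, stood at 633, 455 and 417 CPM in tumors, at 105, 90.3, 103 and 104 CPM in normal lungs and at 95.7, 84.5, 80.4 and 73.0 CPM in tumor-bearing lungs, a log2 fold change of 2.33 (SE 0.18, edgeR adjusted p = 7.95e-06). Slc16a1, the lactate transporter MCT1, had 78.8, 109 and 58.5 CPM in tumors, 19.8, 16.5, 15.2 and 18.6 CPM in normal lungs and 20.9, 26.6, 20.1 and 31.5 CPM in tumor-bearing lungs, a log2 fold change of 2.24 (SE 0.21, edgeR adjusted p = 2.33e-05). Pdk1, the kinase that shuts pyruvate out of the mitochondrial dehydrogenase, measured 69.0, 45.5 and 44.3 CPM in tumors, 25.1, 16.1, 26.3 and 19.4 CPM in normal lungs and 23.6, 25.9, 16.1 and 16.7 CPM in tumor-bearing lungs, a log2 fold change of 1.30 (SE 0.23, edgeR adjusted p = 0.001). For all 3 the tumors were above every lung. Slc16a3, the lactate exporter MCT4, was not called, with 4.63, 12.8 and 5.21 CPM in tumors and 4.75, 7.79, 4.68 and 6.82 CPM in normal lungs; tumor 6880 was above all normal lungs, tumor 6881 lay among them and tumor 6877 just below them.

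The 2 alpha subunits moved in opposite directions. Epas1 was at 25.4, 32.0 and 39.0 CPM in tumors, at 1873, 1611, 1998 and 1906 CPM in normal lungs and at 1564, 1771, 2179.8 and 2112 CPM in tumor-bearing lungs. This was the deepest fall among the 36 genes, −5.83 (SE 0.25, edgeR adjusted p = 4.03e-07) on the log2 scale, and all lungs were above all tumors. The 7 endothelial markers summed to between 69.7 and 95.1 CPM in tumors and to between 1198 and 1415 CPM in these normal lungs, with all 7 detected in both; the part of endothelial content in the fall of Epas1 was not tested. Hif1a had 47.6, 70.0 and 53.0 CPM in tumors, 32.2, 26.0, 27.2 and 43.2 CPM in normal lungs and 38.1, 46.9, 51.4 and 62.7 CPM in tumor-bearing lungs. Tumors lay above the batch 2 normal lungs, with a log2 fold change of 0.84 (SE 0.21, edgeR adjusted p = 0.00683), and overlapped the tumor-bearing lungs. The batch 1 libraries of normal mice 6886 and 6888 were at 44.8 and 56.0 CPM, the latter within the range of the tumors. In mouse 6888 the log2 difference between its batch 1 and batch 2 libraries was 1.04.

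Oxygen sensing showed 1 large rise and no other call. Egln3 (PHD3), a prolyl hydroxylase that is itself a target of the factors it controls, was measured at 171, 156 and 109.9 CPM in tumors, at 0.585, 0.974, 0.936 and 0.808 CPM in normal lungs and at 1.63, 0.728, 0.390 and 0.676 CPM in tumor-bearing lungs. No lung reached 3 CPM and no tumor was under 100 CPM, and the log2 fold change was 7.46 (SE 0.25, edgeR adjusted p = 1.37e-07). Egln1, the main oxygen sensor of most cells, was not called, with a log2 fold change of −0.10 (SE 0.14, edgeR adjusted p = 0.565). Nor was Vhl, which recognizes the marked alpha subunits, at 0.56 (SE 0.26, edgeR adjusted p = 0.0908).

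Among the 10 targets outside glycolysis, 5 rose, 2 fell and 3 were not called. Car9, a carbonic anhydrase at the cell surface that handles acid, was at 18.3, 14.2 and 14.5 CPM in tumors, at 0.950, 1.79, 2.13 and 0.718 CPM in normal lungs and at 1.15, 0.243, 1.5 and 2.03 CPM in tumor-bearing lungs. Ddit4 (REDD1), an inhibitor of mTOR signaling, was at 106, 105 and 93.7 CPM in tumors, 19.8, 11.3, 35.5 and 27.9 CPM in normal lungs and 21.8, 33.5, 16.1 and 14.7 CPM in tumor-bearing lungs. Bnip3, which directs mitochondria to degradation, was at 79.6, 55.4 and 76.4 CPM in tumors, 17.8, 17.6, 32.1 and 27.8 CPM in normal lungs and 27.4, 11.8, 16.5 and 14.3 CPM in tumor-bearing lungs. All tumors exceeded all lungs for these 3 genes, and their log2 fold changes were 3.49 (SE 0.36, edgeR adjusted p = 3.97e-05) for Car9, 2.12 (SE 0.32, edgeR adjusted p = 4.07e-04) for Ddit4 and 1.58 (SE 0.25, edgeR adjusted p = 5.14e-04) for Bnip3. Ankrd37 rose as well, by 1.83. Ndrg1 rose by 0.98 (SE 0.32, edgeR adjusted p = 0.0261) with tumor 6880 inside the range of the normal lungs, and it was not called without tumor 6877 (adjusted p = 0.11), without tumor 6881 (0.0925), or without normal lung 6886 (0.0692) or 6887 (0.0641); over all alternatives the adjusted p ran from 0.00434 to 0.11.

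P4ha2, a subunit of the enzyme that hydroxylates collagen, fell. It had 7.23, 5.03 and 17.3 CPM in tumors, 40.3, 30.0, 41.6 and 34.6 CPM in normal lungs and 25.2, 46.6, 34.7 and 23.5 CPM in tumor-bearing lungs, so that every tumor was below every lung, and its log2 fold change was −1.87 (SE 0.38, edgeR adjusted p = 0.00239). Its partner isoform P4ha1 was not called, at 0.07 (SE 0.16, edgeR adjusted p = 0.742), nor were the vessel-dilating peptide Adm at 0.05 and the histone demethylase Kdm3a at 0.10. Mxi1, an antagonist of Myc, was lower by a margin close to the threshold, −0.48 (SE 0.18, edgeR adjusted p = 0.049). That call was lost without tumor 6880 or 6881 and without any 1 of the 4 normal lungs, with adjusted p between 0.0685 and 0.150, and was kept without tumor 6877 alone.

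The tumors were also set against the lungs of tumor-bearing mice, with 11 libraries and a term for preparation batch. These libraries included the lungs of the 4 normal mice. All 3 tumors were in batch 2, so the batch term was learned on lungs alone. Whether it holds for tumor tissue was not tested. Both comparisons use the same 3 tumors and are therefore not independent. Here 24 of the 36 genes were higher in tumors, 4 were lower (Slc2a3, Pfkfb3, P4ha2 and Epas1) and 8 were not called, where 46.3% of all 18297 genes tested were called, 22.6% higher and 23.7% lower. The median was 1.35 over the 36 and −0.10 over all genes. With limma on log2(TPM + 1) in place of counts, 77.8% of all calls were higher in place of 48.7%, and 24 members were higher and 2 lower. Log2 fold changes were 3.53 (SE 0.28, edgeR adjusted p = 1.94e-06) for Slc2a1, 4.99 (SE 0.41, edgeR adjusted p = 2.12e-06) for Aldoc, 3.77 (SE 0.39, edgeR adjusted p = 1.26e-05) for Pgk1, 7.24 (SE 0.57, edgeR adjusted p = 1.77e-06) for Egln3 and −5.46 (SE 0.26, edgeR adjusted p = 4.89e-08) for Epas1.

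P4ha1 was called higher in tumors here, at 0.98 (SE 0.25, edgeR adjusted p = 0.00663). In batch 2 alone, where the spread of the single tumor-bearing lung is taken to be that of the other groups, it was at 0.68 and not called (adjusted p = 0.0663). Hif1a, Ankrd37 and Mxi1 were not called, with Hif1a at 0.56 (SE 0.26, edgeR adjusted p = 0.0924) and Ankrd37 at 1.33 (SE 0.63, edgeR adjusted p = 0.103). Whether these values differ from those against normal lung was not tested. Slc2a3 was lower at −2.56 (SE 0.69, edgeR adjusted p = 0.00937), and Ndrg1 higher at 1.24 (SE 0.40, edgeR adjusted p = 0.0258). When the mouse was entered as a replicate block, since 3 tumors and 3 lungs come from the same animals, these 2 calls were lost, at −1.85 (adjusted p = 0.0506) for Slc2a3 and 1.10 (adjusted p = 0.0817) for Ndrg1. Tumor-bearing lung 6877, the 1 such lung prepared with the tumors in batch 2, weighed on the marginal calls: without it Slc2a3, Hk2, Pfkm, Ndrg1 and P4ha2 were not called, with adjusted p of 0.0821, 0.147, 0.0556, 0.07 and 0.0969. Hk2, called at 1.12 (SE 0.39, edgeR adjusted p = 0.0327), was also lost without tumor 6877 (adjusted p = 0.0687), tumor 6881 (0.0599), normal lung 6887 (0.0631) or 6888 (0.0504), or tumor-bearing lung 6880 (0.0507). P4ha2, called at −1.38 (SE 0.44, edgeR adjusted p = 0.0234), was lost without tumor 6877 (0.0741), tumor 6880 (0.0541) or normal lung 6888 (0.05003), and Ndrg1 without tumor 6877 (0.0725), tumor 6881 (0.0676) or normal lung 6887 (0.0552). Over all alternatives of this comparison the adjusted p reached 0.0948 for Slc2a3, 0.147 for Hk2, 0.0995 for Pfkm, 0.125 for Ndrg1, 0.287 for P4ha2 and 0.0663 for P4ha1.

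Isoform use was read as the share of 1 gene in the summed TPM of its isoform group within a library, which does not depend on how libraries are scaled. In tumors Hif1a made up 80.6, 82.9 and 75.1% of Hif1a plus Epas1, and in batch 2 normal lungs 3.68, 3.46, 2.93 and 4.79%. Slc2a3 made up 1.39, 1.13 and 1.82% of the 2 glucose transporters in tumors and 51.4, 57.5, 55.3 and 51.4% in normal lungs. For Aldoc, out of Aldoa plus Aldoc, the shares were 39.9, 41.6 and 31.7% and 3.58, 3.74, 3.17 and 4.33%. Hif1a and Slc2a1 were thus the larger of their pairs in tumors and Epas1 in normal lungs, while Aldoa was the larger of its pair in both tissues. Ldha rather than Ldhb accounted for 85.6, 86.1 and 88.1% in tumors and 54.0, 56.6, 55.1 and 56.4% in normal lungs, and Ldhb itself was not called, at −0.02 (SE 0.21, edgeR adjusted p = 0.932).

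Shares moved down in tumors for Slc16a3, from 51.6% ± 7.09 (SD, n = 4) of the 2 lactate transporters to 21.6% ± 5.79 (SD, n = 3), and for Pfkp, from 52.2% ± 3.01 (SD, n = 4) of the 3 phosphofructokinase subunits to 39.9% ± 2.81 (SD, n = 3). For Hk2 the share of the hexokinases was 14.7% ± 3.81 (SD, n = 3) in tumors and 17.8% ± 3.36 (SD, n = 4) in normal lungs, with overlapping libraries and an exact two-sided permutation p of 0.4. In the other 6 groups tumors and normal lungs did not overlap, and each gave the smallest p that an exact two-sided permutation of 3 against 4 libraries allows, 0.0571, or 0.0667 adjusted over the 7 shares, so that none could pass 0.05.

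**Figure D3:**
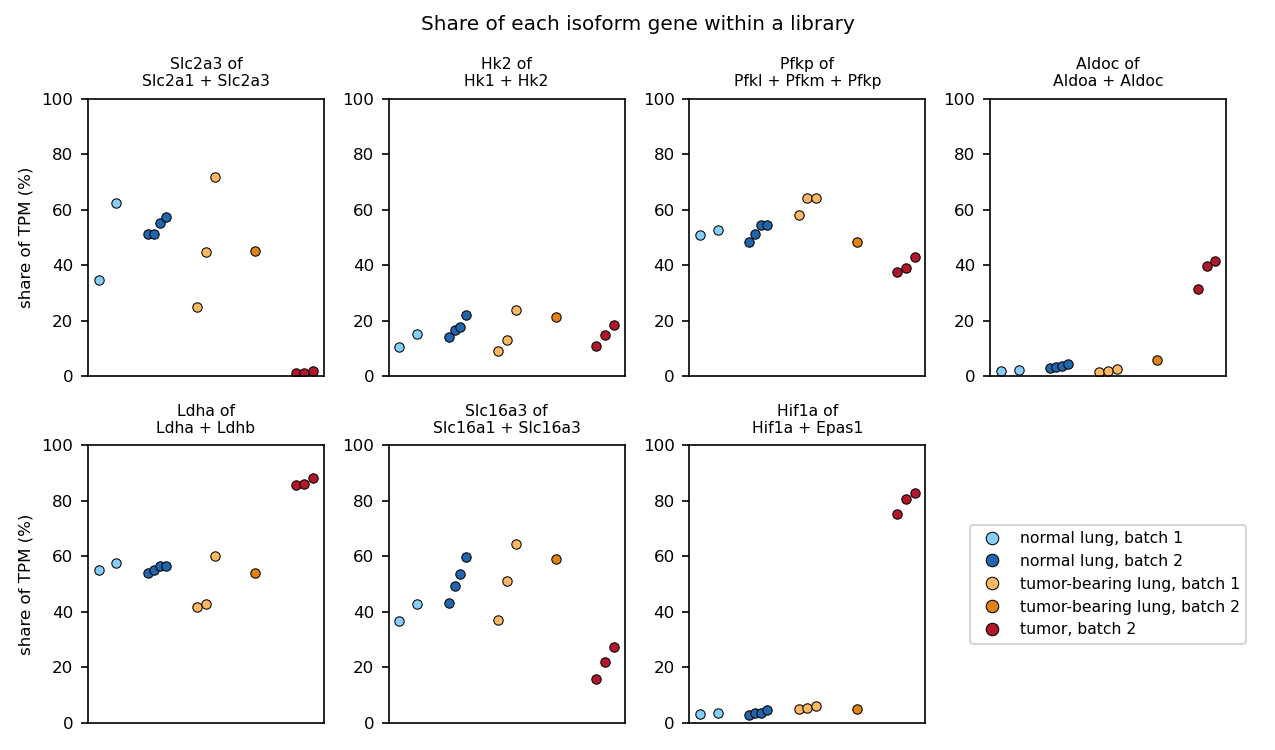
Share of 1 gene in the summed TPM of its isoform group (y axes, percent) in each of the 13 libraries, by tissue and preparation batch. Tumors stand apart from all lungs for Slc2a3, Pfkp, Aldoc, Ldha, Slc16a3 and Hif1a, and overlap for Hk2.

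The other genes of both pathways, taken from 2 lists, moved in both directions. Of 40 tested genes among 43 further glycolysis, glycogen and pyruvate genes, 16 were higher in tumors than in normal lung and 9 lower; of 47 tested among 48 further genes of the hypoxia response, 23 were higher and 12 lower, against 56.8% called over all genes. Medians were 0.48 and 0.47. Pck2, the mitochondrial enzyme that makes phosphoenolpyruvate, had 45.8, 43.5 and 43.2 CPM in tumors and 10.1, 11.1, 10.0 and 9.34 CPM in normal lungs, which gives a log2 value of 2.13 (SE 0.14, edgeR adjusted p = 2.55e-06). Gys1, the muscle-type glycogen synthase and a gene of both lists, stood at 1.45 (SE 0.14, edgeR adjusted p = 2.65e-05) and the mitochondrial phosphatase Pgam5 at 1.33 (SE 0.15, edgeR adjusted p = 6.19e-05), both with all tumors above all normal lungs. Pfkfb4 fell together with its relative Pfkfb3, with 1.13, 3.05 and 3.03 CPM in tumors and 31.7, 22.3, 27.8 and 23.8 CPM in normal lungs, at −3.41 (SE 0.32, edgeR adjusted p = 2.17e-05). Hkdc1, a further hexokinase, had 0 counts in all tumors and was at least 60.3-fold lower than in normal lung, counting 3 counts over the group as the floor.

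In the hypoxia list the placental growth factor gene Pgf measured 58.5, 35.1 and 39.0 CPM in tumors and 0.877, 1.54, 1.45 and 1.26 CPM in normal lungs, or 5.12 (SE 0.27, edgeR adjusted p = 1.04e-06) on the log2 scale. Car12, a second surface carbonic anhydrase, gave 1683 counts in the 3 tumors and 2 in the 4 normal lungs, a ratio of 1181 with an exact 95% interval of 326 to 9757 for counting error alone. Selenbp1 fell from 235, 215, 239 and 251 CPM in normal lungs to 4.29, 3.81 and 3.26 CPM in tumors, at −5.94 (SE 0.19, edgeR adjusted p = 1.37e-07), and the nuclear receptor gene Rora fell at −2.81 (SE 0.18, edgeR adjusted p = 2.20e-06). Vegfa, the main angiogenic target of the hypoxia-inducible factors and a gene singled out here after its values were seen, was lower in tumors, at 79.7, 66.1 and 62.4 CPM against 386, 338, 310.0 and 389.9 CPM in normal lungs, with a log2 fold change of −2.34 (SE 0.17, edgeR adjusted p = 5.40e-06).

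The last comparison asks whether the same genes differ in the lung between mice with and without a distant tumor, with 8 lungs, each mouse once, and a batch term. None of the 35 genes tested passed an adjusted p of 0.05 with edgeR, and Egln3 was too low to be tested; over all 16727 genes tested 0.0359% were called. At an unadjusted p under 0.05 there were 8 genes, 22.9% of the 35, against 14.0% of all genes (6.13% higher and 7.87% lower). They were P4ha1, Gapdh, Pgam1 and Epas1, lower in tumor-bearing lungs, and Eno1, Pfkfb3, Slc2a1 and Slc16a3, higher. DESeq2 called 1 of the 35 and limma voom 0. Over all genes DESeq2 also called many more than edgeR, as given under the dependence on the processing. Groups did not overlap for 1 gene that was higher in tumor-bearing lungs and 3 that were lower, against 2.01% and 3.10% of all genes. The median was −0.09 over the 35 and 0.01 over all genes. Neutrophil markers, 6 in number and all detected, summed to between 62.5 and 154 CPM in tumor-bearing lungs. In the normal lungs used they summed to between 16.0 and 73.2 CPM. Within batch 1 the sums for endothelium, lung epithelium, simple epithelium, macrophages and red cells were lower in tumor-bearing lungs. Fibroblast markers overlapped there. They summed to 2092, 3013 and 2256 CPM in tumor-bearing lungs 6879, 6880 and 6881. In normal lungs 6886 and 6888 they summed to 2517 and 1541 CPM, and to 857 and 697 CPM in the batch 2 libraries of these mice. Endothelial markers were at 1536, 2180 and 2121 CPM in tumor-bearing lungs 6879, 6880 and 6881, and at 2555 and 2759 CPM in normal lungs 6886 and 6888. In batch 2 lung 6877, at 1262 CPM, lay within the 1198 to 1415 CPM of the normal lungs. It was above them for lung epithelium, simple epithelium, macrophages and fibroblasts, the last at 982 CPM against 676 to 857 CPM. The part of any of these lists, also for Epas1, was not tested.

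P4ha1, the catalytic alpha subunit of collagen prolyl hydroxylase, had the smallest p. It was at 35.8, 42.7 and 41.7 CPM in the batch 1 tumor-bearing lungs of mice 6879, 6880 and 6881 and at 104 and 114 CPM in the batch 1 normal lungs. In batch 2 it was at 40.9 CPM in tumor-bearing lung 6877 and at 63.5, 47.8, 66.6 and 63.8 CPM in the 4 normal lungs. Tumor-bearing lungs were lower within each batch and did not overlap the normal lungs, and the normal mice sequenced in both batches were themselves higher in batch 1. The log2 fold change was −1.02 (SE 0.18, edgeR adjusted p = 0.124) with an unadjusted p of 2.67e-04, −1.32 (SE 0.15, edgeR adjusted p = 0.0286) in batch 1 alone and −0.58 in batch 2 alone, where the only tumor-bearing lung is 6877 and no test is read. Besides batch 1 alone, it passed the threshold without the filter on low counts (adjusted p = 0.00245) and with DESeq2 (adjusted p = 3.04e-04). Both of these fits called many more of all genes than the reported fit. P4ha1 also passed with limma on log2(TPM + 1) (adjusted p = 0.0491) and without tumor-bearing lung 6877 (adjusted p = 0.019). Over all alternatives its adjusted p ran from 3.04e-04 to 0.654.

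Lower glycolysis gave 3 of the 8. Gapdh stood at 21.0, 28.6 and 22.6 CPM in batch 1 tumor-bearing lungs and 61.8 and 63.9 CPM in batch 1 normal lungs, but at 48.9 CPM in tumor-bearing lung 6877 and 58.2, 41.6, 40.8 and 46.8 CPM in normal lungs of batch 2. The log2 fold change of −0.76 (SE 0.25, edgeR adjusted p = 0.256) was made up of −1.26 in batch 1 and 0.04 in batch 2, the latter from 1 tumor-bearing lung. Without tumor-bearing lung 6877 Gapdh was called, at −1.27 (edgeR adjusted p = 0.0217). With its near copies added it was at −0.26 (edgeR adjusted p = 0.469), and over all alternatives the adjusted p ran from 0.0217 to 0.987. Eno1 was at 23.9, 35.4, 32.1 and 27.2 CPM in tumor-bearing lungs and at 19.7 and 15.3 CPM in batch 1 and 22.9, 17.0, 13.6 and 23.4 CPM in batch 2 normal lungs, and its log2 fold change of 0.71 (SE 0.22, edgeR adjusted p = 0.231) came to 0.10 with its copies. The single-gene values of Gapdh and Eno1 had opposite signs, and with copies both were nearer to 0. Pgam1 was at −0.37 (SE 0.13, edgeR adjusted p = 0.278), and at −0.33 with copies.

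Slc2a1, at 0.52 (SE 0.23, edgeR adjusted p = 0.352), had unlike values in the batches. Tumor-bearing lung 6877 had 20.0 CPM and the other 3 had 8.74, 10.6 and 9.61 CPM, against 10.8 and 8.36 CPM in the batch 1 libraries of normal lungs 6886 and 6888 and 8.62, 9.17, 6.30 and 7.99 CPM in normal lungs of batch 2. The batch 1 library of 6886 was above the 3 tumor-bearing lungs of that batch. Within batches the value was 0.14 in batch 1 and 1.30 in batch 2. Pfkfb3 was at 103, 92.0, 103 and 94.8 CPM in tumor-bearing lungs, at 78.6 and 94.9 CPM in the batch 1 libraries of normal lungs 6886 and 6888 and at 75.6, 72.7, 77.0 and 84.3 CPM in batch 2 normal lungs. The groups overlapped, and the log2 fold change was 0.30 (SE 0.12, edgeR adjusted p = 0.328). On the TPM scale, on which the median of all genes was −0.23, the sign of both Slc2a1 and Pfkfb3 turned. Slc16a3 had its highest value, 15.2 CPM, in tumor-bearing lung 6879, and a log2 fold change of 0.84 (SE 0.37, edgeR adjusted p = 0.353), or 1.14 and 0.64 within batches 1 and 2. Epas1 was at −0.40 (SE 0.14, edgeR adjusted p = 0.286), with −0.50 and −0.26 within batches.

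**Figure D4:**
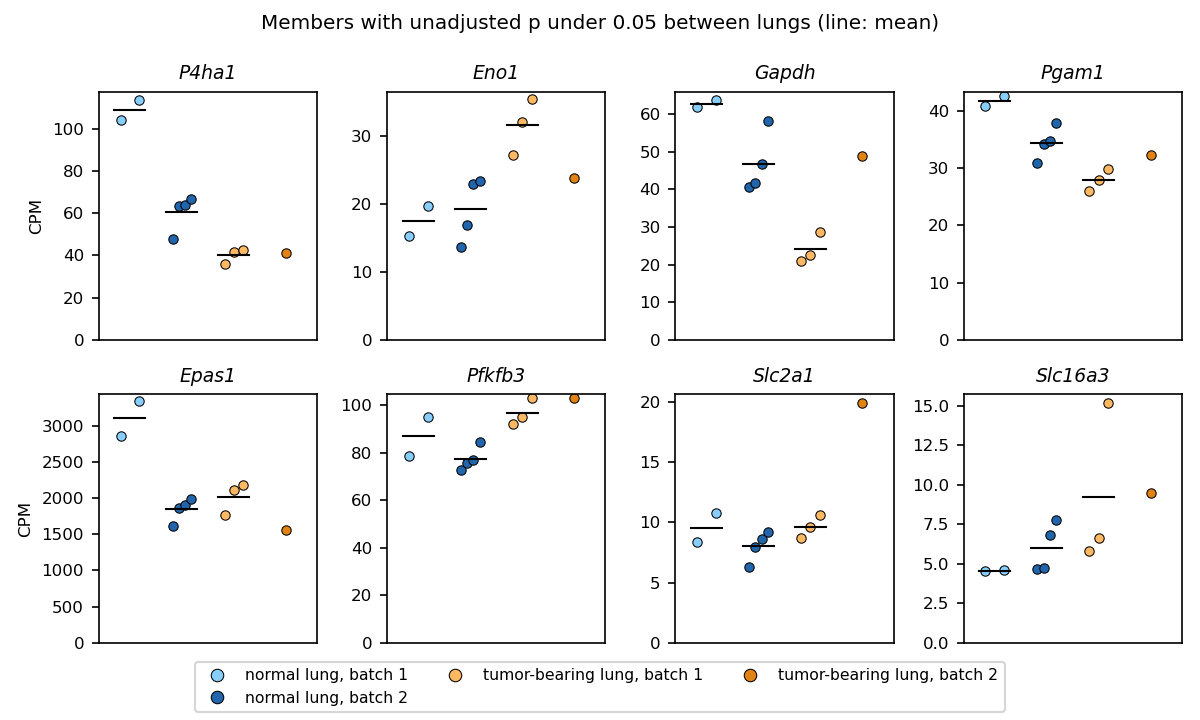
CPM (y axes, linear from 0) in each of the 10 lung libraries, by group and preparation batch, for the 8 genes with an unadjusted p under 0.05; points are libraries, lines are means where there are at least 2. P4ha1 is lower in tumor-bearing lungs in each batch, Gapdh is lower in batch 1 alone, and Slc2a1 is highest in the 1 tumor-bearing lung of batch 2.

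None of the 10 hypoxia targets outside glycolysis passed the test between lungs. Of these, 8 had a negative and 2 a positive log2 fold change, and the median was −0.23. Car9 was at 0.42 (SE 0.67, edgeR adjusted p = 0.809), Bnip3 at −0.51 (SE 0.27, edgeR adjusted p = 0.432), Ndrg1 at −0.19 (SE 0.27, edgeR adjusted p = 0.778) and Ddit4 at −0.27 (SE 0.39, edgeR adjusted p = 0.789). The standard errors of the low genes Car9, Ankrd37 and Adm, 0.67, 0.48 and 0.41, limit what was detectable at this depth and number of mice. Hif1a made up 5.14, 5.55, 4.98 and 6.19% of Hif1a plus Epas1 in tumor-bearing lungs, above the 3.36 to 4.79% of the 4 normal lungs used, with a difference within batches of 1.71 percentage points. Its exact two-sided permutation p of 0.0667, permuted within batches, is the smallest this design allows, and it was 0.467 adjusted over 7 shares. The other 6 shares overlapped between the groups.

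Of the further pathway genes none passed in the lung comparison with edgeR, out of 36 glycolysis and 45 hypoxia genes tested; 6 (16.7%) and 7 (15.6%) had an unadjusted p under 0.05, near the 14.0% of all genes. Those with the smallest p were Slc2a6, a glucose transporter of intracellular membranes, at 1.25 (SE 0.25, edgeR adjusted p = 0.17), Hkdc1 at 1.40 (SE 0.37, edgeR adjusted p = 0.194), the lipase inhibitor Angptl4 at −1.16 (SE 0.30, edgeR adjusted p = 0.194) and Elob, a partner of Vhl in its ubiquitin ligase, at −0.56 (SE 0.16, edgeR adjusted p = 0.208). Slc2a6 had 5.83, 4.73, 7.22 and 5.03 CPM in tumor-bearing lungs, 2.97 and 2.82 CPM in the batch 1 libraries of normal lungs 6886 and 6888 and 5.12, 2.11, 4.17 and 1.80 CPM in the batch 2 normal lungs.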

How the data were processed

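Total RNA of 20 mg of snap-frozen tissue was depleted of ribosomal RNA, made into libraries from 100 ng and sequenced with single 75 bp reads, per the labels. Samples were fragmented by their RNA quality, for which no values were used here. Salmon (no version given), DESeq2 1.18.1 and the build mm10 are listed in the submitters' processing notes. The authors deposited 1 table of estimated counts and 1 of TPM for 13 libraries, with 0 columns of no sample. Dividing counts by TPM left 1 factor per gene and 1 per library (largest log2 deviation 1.08e-14 over 17717 genes), so both tables carry the same relative values. The deposited counts thus need not be numbers of observed reads, and they were rounded before fitting. Of 46679 IDs, 46201 were named from GENCODE M21 (GRCm38, the build mm10). No paper was used.

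edgeR 4.0.16 (R 4.3.3; quasi-likelihood, TMM, filterByExpr) was fitted to all genes, with Benjamini-Hochberg adjustment and a threshold of 0.05: 7 batch 2 libraries for tumor against normal lung, 11 with a batch term for tumor against tumor-bearing lung, and 8 with a batch term for the lungs, taking the batch 1 library of normal mice 6886 and 6888. CPM use TMM factors over 13 libraries; TPM served for shares and for comparing genes. Shares were tested with exact permutations (scipy 1.17.1, Python 3.11.15). Near copies were found with BLAST 2.17.0. Alternatives used limma 3.58.1 (voom, and log2 TPM with pseudocounts of 1 and 0.1), DESeq2 1.42.0, other filters, scalings and batch handling, and leaving out each library. The fits were tested on simulated data. The mouse numbers pair 3 tumors with 3 lungs of the same animals; the correlations of their residuals over 16585 genes were 0.180, 0.0210 and −0.147.

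Genes named with values in every library are, per role, up to 4 called members with the largest fold change, both alpha subunits, the member with the smallest p between lungs and the one with the highest TPM; for the further lists, the 4 with the smallest p in tumors and 2 between lungs. The members and lists were chosen with earlier results of these data known. Each mouse is 1 replicate. Intervals and floors from counts take the estimated counts as observed reads. They cover only counting error, because reads amplified without molecular identifiers can repeat a molecule. Of the 36 genes 18 overlap another annotated gene, and whether the counting used strand is not given in the sources used here.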

Additional observations from a re-analysis of the deposited data

Results flagged for a closer look

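Within the batch 2 normal lungs and the tumor-bearing lungs, each of 4 libraries, the 36 genes give 72 groups. Of these, 7 had 1 library far from the other 3. About 1 group in 20 would by chance, if values were independent and normally spread. The genes share libraries, 1 tumor-bearing lung is of another batch, and the share over all genes was not computed. The count is therefore not read as a trait of these genes. Slc2a1 was at 19.98 CPM in tumor-bearing lung 6877 and at 8.74 to 10.6 CPM in the other 3, and Aldoc was at 6.21 CPM in the same lung and at 1.34 to 1.89 CPM in the others; this lung is also the 1 tumor-bearing lung of batch 2. Tumor-bearing lung 6881 was lowest for Gpi1, at 71.6 CPM against 78.3 to 79.3 CPM, and highest for Ankrd37, at 3.38 CPM against 1.05 to 1.21 CPM. Among batch 2 normal lungs, mouse 6886 was highest for Tpi1, at 54.4 CPM against 34.1 to 35.6 CPM, and its batch 1 library was high as well, at 66.7 CPM. Mouse 6887 was lowest for Ldha, at 90.3 CPM against 103 to 105 CPM, and for P4ha1, at 47.8 CPM against 63.5 to 66.6 CPM.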

How the results depend on the processing

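The 30 calls of tumor against normal lung had the same outcome in 464 of 480 recomputed values, and the 28 calls of tumor against tumor-bearing lung in 589 of 616; the 43 others kept their direction and missed the threshold, for Mxi1 and Ndrg1 in the first and for Slc2a3, Ndrg1, P4ha2, P4ha1, Pfkm and Hk2 in the second. Leaving out 1 library, the number of members called was 28 to 29, 23 to 29 and, between lungs, 0 to 2. With the mouse as a replicate block 26 members were called in tumor against tumor-bearing lung, and no other call than Slc2a3 and Ndrg1 changed. Between lungs the count was 1 with no filter on low counts, with DESeq2, with limma on log2(TPM + 1) and in batch 1 alone; over all genes DESeq2 called 426, and the fit without a filter 275, where the reported fit called 6. Slc2a1 turned to −0.034 and −0.14 and Pfkfb3 to −0.31 and −0.38 on log2(TPM + 1) and log2(TPM + 0.1), on which the median of all genes was −0.23 and −0.54 and the share of calls that were higher 4.44% and 6.15% in place of 33.3%. In tumor against tumor-bearing lung log2(TPM + 0.1) gave 67.6% higher. Gapdh turned to 0.048 when the mice sequenced in both batches entered with their batch 2 library and to 0.043 in batch 2 alone, and the difference in Pfkp share between lungs to −3.76 percentage points with those libraries; the causes were not tested. Leaving out 1 library moved the lung differences in share from −12.5 to 2.22 for Slc2a3 and from −0.049 to 1.03 for Aldoc. With 4 mice a group, and exact tests that cannot go below 0.0667, small differences between lungs could not be shown. In simulated data the edgeR fit between lungs recovered 31% of log2 shifts of 1 and 85% of log2 shifts of 2. For tumor against normal lung these values were 22% and 72%, and for tumor against tumor-bearing lung 4% and 58%. Differences of a log2 fold change of 1 could thus be missed as well, in each comparison.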

Other observations

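Of the 25 genes that were higher in tumors than in normal lung, tumor 6877 was the highest of the 3 for 16, tumor 6880 for 6 and tumor 6881 for 3, and tumor 6881 was the lowest for 14. Over all 5308 genes higher in tumors these tumors were highest for 54.6, 30.0 and 15.4%, against 64, 24 and 12% of the 25. Tumor 6881 was the lowest for 44.7% of all and 56% of the 25. Pgk1 ran from 442 CPM in tumor 6877 to 231 CPM in tumor 6881 and Aldoc from 183 to 95.7 CPM. Eno1, Hk1 and Slc16a1 were instead highest in tumor 6880, and P4ha2 in tumor 6881, at 17.3 CPM against 7.23 and 5.03 CPM.

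The lungs of normal mice 6886 and 6888 were each sequenced in both batches, which gives the difference between 2 libraries of 1 mouse. The batch 1 library was higher than the batch 2 library of the same mouse for 28 of 36 genes in mouse 6886 and for 25 of 36 in mouse 6888, with median log2 differences of 0.24 and 0.32. Over 16671 genes with a mean of at least 1 CPM the batch 1 library was higher for 61.2% and 58.4%, with medians of 0.18 and 0.14, against 77.8% and 69.4% of the 36. Epas1 was at 2868 and 1873 CPM in batches 1 and 2 for mouse 6886. Between the mice, Bnip3, Ndrg1 and Ddit4 were higher in 6888 than in 6886 in both batches, with Ddit4 at 43.0 and 35.5 CPM in 6888 and at 22.1 and 19.8 CPM in 6886.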
